A study of Sus scrofa with 5 samples.

Results

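A small set of smooth muscle nuclei in the pig abdominal aorta carried high counts of CTNNA3, STUM, DGKB, RGS6, CSMD3, GLRB, CYSLTR2 and EDNRB. Nuclei were eligible with 2000 or more UMIs (unique molecular identifiers, 1 per counted RNA molecule) and at least 3 of the 7 smooth muscle genes MYH11, ACTA2, LMOD1, SYNPO2, CNN1, MYLK and SMTN at 1 or more UMI. The panel score of a nucleus was the mean over the 8 panel genes of ln(1 + UMIs per 10,000). Members were the top 5% by score over all libraries pooled, with at least 3 panel genes detected. Of 21000 eligible (gated) nuclei, 1050 lay in the top 5%, 18 of these had fewer than 3 panel genes, and 1032 were members. The remaining 19968 gated nuclei are called the rest. The series holds 45580 barcodes in all, of which 24776 had 2000 or more UMIs.

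The libraries are single-nucleus RNA-seq (10x 3' v3.1 chemistry) of snap-frozen abdominal aorta from castrated male Ossabaw pigs, a strain used as a model of diet-induced obesity and vascular disease. The obese group was 3 pigs on the HF/HFru diet and the control group was 2 pigs on chow, with 1 library per pig. Feeding began at 12 months of age and lasted 6 months in the sample labels and 9 months in the series' design text. Each library came from about 50 mm of vessel, with no separation of the wall's layers named, and nuclei were sorted on a DNA stain. Pigs are numbered as labelled, and each pig is 1 replicate. Total UMIs per library were 21516249 to 47724416 over the 5 pigs.

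Contraction of arterial smooth muscle is set by agonists that act on G protein-coupled receptors, which raise calcium through phospholipase C, inositol trisphosphate and diacylglycerol. EDNRB encodes the endothelin B receptor and CYSLTR2 a receptor for cysteinyl leukotrienes. RGS6 belongs to the R7 family of regulators that speed the turning off of G proteins, and DGKB is a diacylglycerol kinase, which removes diacylglycerol. CTNNA3 encodes alpha-T-catenin, which ties cadherin junctions to actin. GLRB is the beta subunit of the inhibitory glycine receptor, CSMD3 is a large membrane protein with CUB and sushi domains, and the Drosophila homologue of STUM acts in mechanical sensing. Pericytes, the mural cells of small vessels, share receptors and contractile genes with smooth muscle and are usually told apart by genes such as ABCC9, KCNJ8, HIGD1B and RGS5.

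The panel score separated members only in part. Over all gated nuclei, 10816 scored under 0.1, 100 scored from 0.8 to 0.9, 69 from 1.0 to 1.1 and 90 from 1.7 to 1.8. The lowest member scored 0.916 and the highest gated nucleus outside the top 5% scored 0.914, so the boundary lay below the shallow minimum of the distribution and not in a gap. The 25 members just inside the boundary had medians of 4 CTNNA3 and 3 RGS6 UMIs, and the 25 nuclei just outside had medians of 2 CTNNA3 and 8 RGS6 UMIs. EDNRB was detected in 12 of the 25 inside and in 9 of the 25 outside. A further 50 nuclei with 2000 or more UMIs scored as high as members and failed the smooth muscle gate.

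Members made up 11.5%, 6.23% and 3.42% of the gated nuclei of the obese pigs, against 3.45% and 2.30% of those of the control pigs. The obese pigs held 328, 256 and 136 members, and the control pigs 241 and 71. The exact 95% binomial intervals, which cover counting error only, were 10.4 to 12.7%, 5.51 to 7.01% and 2.88 to 4.04% in obese pigs and 3.04 to 3.91% and 1.80 to 2.90% in control pigs. The groups overlapped, since the third obese pig lay below the first control pig. The mean share was 7.05% ± 4.11 for the 3 obese pigs, against 2.88% ± 0.812 for the 2 control pigs (SD), and the difference of 4.18 percentage points gave p = 0.3 in the two-sided exact permutation test, which can give no p under 0.2 with 3 against 2 pigs. Without the first obese pig the difference was 1.95 percentage points.

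**Figure D1:**
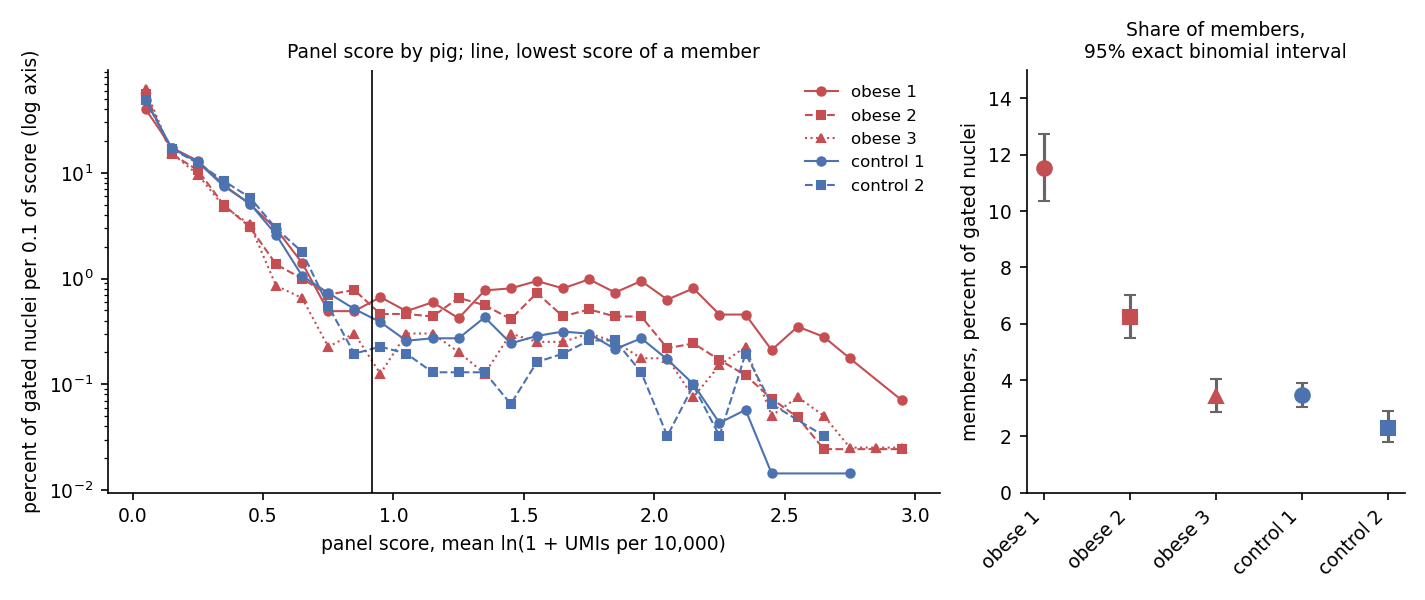
Left, the panel score (mean ln(1 + UMIs per 10,000)) against the percent of each pig's gated nuclei per 0.1 of score, on a log axis, with 1 line per pig and a vertical line at the lowest score of a member. Right, members as a percent of gated nuclei in each pig with exact 95% binomial intervals; the first obese pig stands highest at 11.5% and the third obese pig (3.42%) lies level with the first control pig (3.45%).

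The panel genes chose the members, so their levels are given as a description. Levels are in CPM, the UMI counts of a gene summed over all nuclei of a set in a pig and scaled to the same total in every set, and they are given in the order of obese pigs 1 to 3 and then control pigs 1 and 2. CTNNA3 was the most abundant, at 9539, 8535, 9445, 10004 and 10872 CPM in members and 269, 239, 216, 378 and 366 CPM in the rest. RGS6 followed with 2396, 3029.8, 3671, 2632 and 2610.1 CPM in members and 105, 101, 90.0, 148 and 182 CPM in the rest. EDNRB was at 319, 293, 454, 302 and 525 CPM in members and 13, 19.1, 4.01, 4.34 and 3.55 CPM in the rest. No pig's rest reached the members' level of any of the 3. STUM stood at 509 to 1068 CPM in members and 6.64 to 25.1 CPM in the rest, DGKB at 370.2 to 752 CPM in members and 5.13 to 17.2 CPM in the rest, CSMD3 at 259 to 1108 CPM in members and 7.52 to 10.2 CPM in the rest, GLRB at 124 to 698 CPM in members and 16.1 to 44.8 CPM in the rest and CYSLTR2 at 41.1 to 349.9 CPM in members and 0.902 to 5.58 CPM in the rest.

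Members rarely carried the whole panel: 138 had 3 of the 8 genes detected, 253 had 4, 288 had 5, 222 had 6, 107 had 7 and 24 had all 8. CTNNA3 was detected in 87.3 to 97.5% of members per pig and RGS6 in 89.1 to 96.7%, while CYSLTR2 was detected in 11.3 to 29.9%. With every nucleus thinned to 2000 UMIs these ranges were 84.5 to 96.3%, 83.2 to 88.8% and 4.23 to 22.0% in members, against 14 to 20.8%, 8.27 to 16.6% and 0.199 to 0.714% in the rest. When the score was rebuilt without a panel gene, the left-out gene was still higher in the new members of all 5 pigs, by 30.4 to 94.3 times for STUM, 24.4 to 65.2 times for CSMD3, 21.0 to 35.0 times for CTNNA3, 22.5 to 237 times for CYSLTR2, 15.3 to 89.6 times for DGKB, 13.6 to 36.7 times for RGS6, 10.6 to 77.9 times for EDNRB and 4.67 to 27.2 times for GLRB. The panel was itself picked on these nuclei, so these ratios carry no test. In nuclei outside the gate with at least 3 endothelial markers, CTNNA3 was at 23.0 to 138 CPM, RGS6 at 64.5 to 629 CPM and EDNRB at 3.99 to 47.1 CPM per pig, all below the members of the same pigs. Among nuclei with Schwann cell markers, CTNNA3 reached 1629 CPM in obese pig 1 (14 nuclei) and EDNRB 237 CPM in control pig 1 (10 nuclei).

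Members had more UMIs than the rest and held a larger share of nuclei with high doublet scores in every pig. Median UMIs per nucleus were 4536, 5360.5, 5094, 5751 and 5177 in members and 4027, 4076, 3836, 4205 and 4106 in the rest, higher in members of all 5 pigs. Nuclei among the highest doublet scores of their library, or failing quality limits, made up 8.45 to 16.8% of members and 5.94 to 10.3% of the rest, while nuclei with 3 or more markers of another cell class made up 2.21 to 7.04% of members and 9.56 to 15.6% of the rest. Scrublet's own cut-off marked only 4 nuclei, so its scores were used by rank. Leaving out the highest ranks and the few barcodes that failed other quality limits gave 3025 genes that differed between members and rest, and scoring nuclei thinned to 2000 UMIs gave 2947, against 2854 in the comparison of members with the rest that is reported here. 199 barcodes occurred in more than 1 library, and 6 members had such a barcode.

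Members carried the smooth muscle genes of the gate, some above and some below their levels in the rest. Their summed level was 8755 to 11263 CPM in members and 6000.2 to 8379 CPM in the rest. MYH11, the smooth muscle myosin heavy chain, was at 2787, 3602, 3283, 3744 and 2859 CPM in members and 2297, 2536, 2923, 2844 and 3192 CPM in the rest, and ACTA2, smooth muscle actin, was at 997, 1577, 714, 933 and 687 CPM in members and 1364, 1372, 2598, 1276 and 1239 CPM in the rest. MYH11 overlapped between the sets, and ACTA2 was lower in members of 4 of 5 pigs. The gate used these genes, so no test is given. SYNPO2, an actin-binding protein of the gate, was at 4063, 2803, 5977, 2913 and 4257 CPM in members and 1202, 1074, 1086, 1445 and 853 CPM in the rest, higher in members of all 5 pigs. MYLK, the myosin light chain kinase, and SMTN, smoothelin, were lower in members of all 5 pigs, with MYLK at 469.8 to 813 CPM in members and 630.0 to 1026 CPM in the rest and SMTN at 142 to 263 CPM in members and 239 to 416 CPM in the rest. Among contractile genes outside the gate, 6 of 16 tested were higher in members, 1 was lower and 9 did not pass, beside 11.0% higher and 9.62% lower over all tested genes, with a median log2 difference of 0.22 (all tested genes, -0.08). PPP1R12B, a myosin phosphatase subunit, averaged 468 ± 51.1 CPM in members and 259 ± 47.4 CPM in the rest (SD, n = 5 pigs). TPM1 (tropomyosin), TAGLN (transgelin), PGM5 and SRF, a transcription factor of contractile genes, were also higher, with log2 differences of 0.75, 0.72, 0.65 and 1.22. ACTG2, the enteric smooth muscle actin, was lower (-1.04 ± 0.23, SE). MYOCD, the myocardin coactivator, was at 814 CPM in members and 910.4 CPM in the rest. The TAGLN call ended without the first or the second obese pig, and the SRF call without the second.

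Members were then compared with the rest of the same pigs by edgeR's quasi-likelihood test on summed counts with pig as a block. Genes that vary with the panel across nuclei must differ between sets cut on the panel, so the adjusted p says how evenly a difference held over the 5 pigs and gives no independent support for the state. Outside the panel and gate, 2854 of 13841 tested genes passed at an adjusted p under 0.05, which is 20.6%. Of these, 1522 (11.0%) were higher and 1332 (9.62%) were lower in members.

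The 12 named genes that rose most in members were all low in the rest, at means of 13.8 CPM or less. They included MMEL1, an endopeptidase related to neprilysin, ADAMTS4, an aggrecan-cleaving protease, and SERPINB7, a serine protease inhibitor of the serpin family. MMEL1 had 24.2, 51.9, 47.0, 17.1 and 36.7 CPM in members and 0.595, 0.604, 0.195, 0.214 and 0.180 CPM in the rest, and the sets did not overlap (log2 difference 6.74 ± 0.36 SE, adjusted p = 1.23e-08). ADAMTS4 had 151, 29.0, 77.5, 10.1 and 54.0 CPM in members and 3.72, 2.93, 1.32, 0.456 and 1.08 CPM in the rest, with its lowest members value in the first control pig. SERPINB7 averaged 22.2 ± 13.4 CPM in members and 0.794 ± 0.141 CPM in the rest (SD, n = 5 pigs).

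Genes of contact and signalling followed. GJA4, the gap junction protein connexin 37, had 12.6, 24.1, 23.5, 15.8 and 34.6 CPM in members and 0.744, 0.789, 0.244, 0.429 and 1.2 CPM in the rest (log2 difference 5.21 ± 0.36 SE, adjusted p = 1.75e-07). CDH6, a cadherin, had 9.46, 14.2, 8.22, 47.5 and 21.6 CPM in members and 0.670, 0.929, 0.342, 1.15 and 0.421 CPM in the rest, and both control pigs lay above the obese pigs among members. BMP5, a bone morphogenetic protein ligand, had 22.1, 11.1, 14.1, 85.5 and 62.7 CPM in members and 0.819, 1.02, 0.440, 1.45 and 0.421 CPM in the rest, again highest in the control pigs. APOLD1, an early-response gene of vascular cells, averaged 95.8 ± 38.0 CPM in members and 3.17 ± 2.94 CPM in the rest (SD, n = 5 pigs). RASD1, a small G protein of the Ras family, averaged 21.6 ± 9.89 CPM in members and 0.879 ± 0.539 CPM in the rest. The transcriptional coactivator EYA4 (82.9 CPM in members and 2.75 CPM in the rest), PCP4L1 (50.2 CPM in members and 1.11 CPM in the rest), ABTB3 (352 CPM in members and 13.8 CPM in the rest) and TP53I11 (143 CPM in members and 5.87 CPM in the rest) completed the set. TP53I11 overlaps TSPAN18 in the RefSeq annotation, so its reads may not be its own. The adjusted p of all 12 lay between 5.27e-09 and 5.4e-07.

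The 10 named genes that fell most in members had means of 49.3 to 1431 CPM in the rest. NOX4, a NADPH oxidase that makes hydrogen peroxide, had 386, 188, 184, 329 and 159.9 CPM in members and 1784, 1615, 1599.7, 1207 and 948 CPM in the rest (log2 difference -2.39 ± 0.18 SE, adjusted p = 2.7e-07). SEMA3E, a secreted semaphorin, had 116, 140.3, 49.3, 286 and 153 CPM in members and 764, 717, 693, 1163 and 944 CPM in the rest, and CTNND2, delta-catenin, had 67.3, 16.1, 21.1, 38.0 and 23.8 CPM in members and 322, 163, 146, 171 and 543 CPM in the rest. Every pig showed the fall, and no members value reached the lowest value of the rest for these 3 genes. The glycosyltransferase-family gene GALNTL6 averaged 115 ± 102 CPM in members and 665 ± 283 CPM in the rest (SD, n = 5 pigs). The transcription factor TP63 (5.17 CPM in members and 51.3 CPM in the rest), the interleukin 33 receptor IL1RL1 (6.15 CPM in members and 63.4 CPM in the rest), the integrin ligand EDIL3 (11.7 CPM in members and 87.4 CPM in the rest), the collagen COL21A1 (5.21 CPM in members and 50.3 CPM in the rest), THSD7B (7.30 CPM in members and 49.4 CPM in the rest) and SHROOM4 (8.05 CPM in members and 49.3 CPM in the rest) were the others. Without the pig block 1632 genes passed, against 2854 with it; leaving out a pig left 2228 to 2707. With no filter on low counts 3688 passed, and the share that was higher in members was 38.8% of calls, against 53.3%. With the top 2.5% as members it was 42.7% of 3075 calls.

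**Figure D2:**
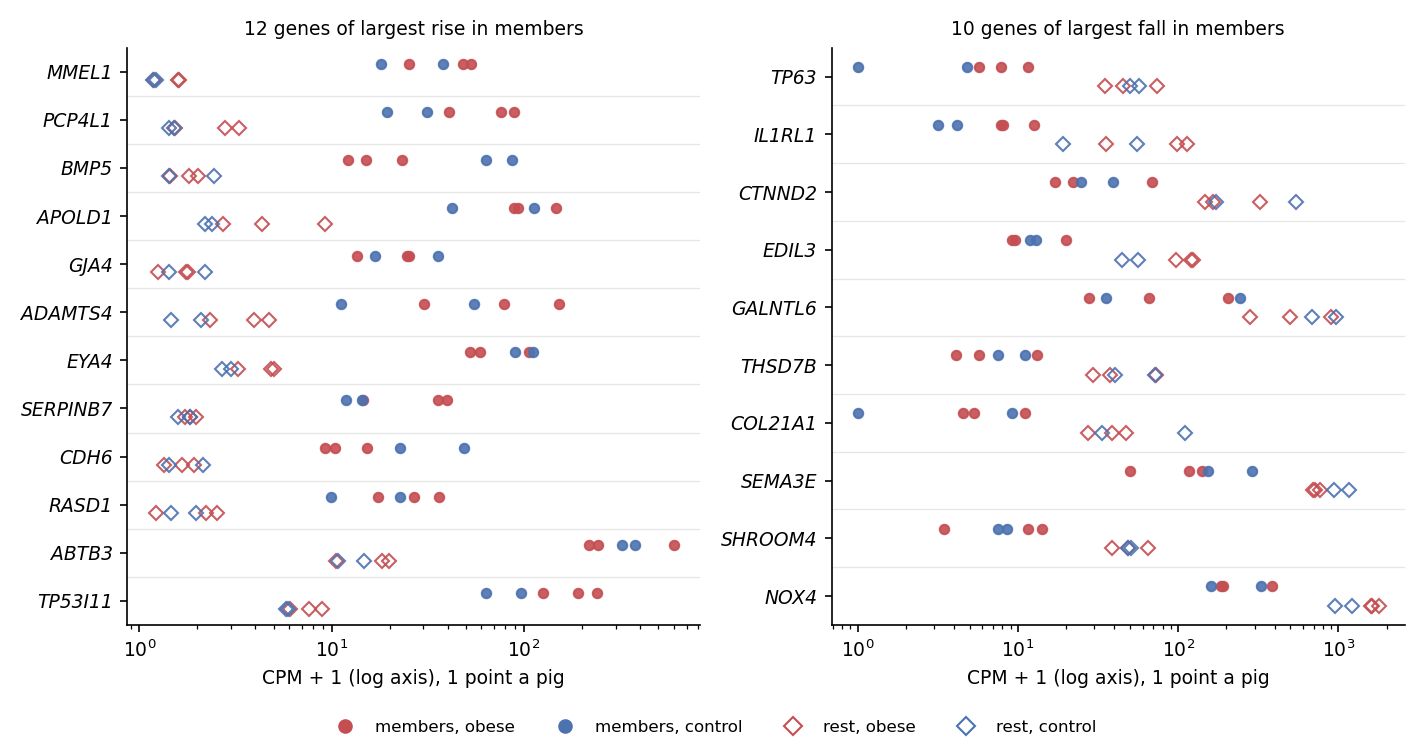
CPM + 1 on a log axis for the 12 genes with the strongest rise and the 10 with the strongest fall in members, with 1 point per pig; filled circles are members, open diamonds the rest, red obese and blue control pigs. For MMEL1 the members lie at 17.1 to 51.9 CPM and the rest at 0.180 to 0.604 CPM, and for NOX4 the members lie at 159.9 to 386 CPM and the rest at 948 to 1784 CPM.

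The genes whose counts followed the score most closely over the 21000 gated nuclei were ranked by the mean of the 5 within-pig Pearson correlations among 10455 genes; nuclei share library and depth, so no p is given. ITIH5, which binds hyaluronan in the matrix, came first (mean r = 0.43, 0.31 to 0.53 over pigs), with 477, 556, 716, 633 and 678 CPM in members and 42.3, 52.3, 48.7, 62.0 and 49.1 CPM in the rest. IFRD1, a transcriptional coregulator, came next (r = 0.43), with 2988, 2052, 3718, 1057 and 1435 CPM in members and 348, 161, 238, 117 and 108 CPM in the rest. NEK4, a kinase (r = 0.42), overlaps ITIH1 in the RefSeq annotation, and its level is uncertain for that reason. PHACTR1, which binds actin and protein phosphatase 1 (r = 0.41), had 911, 1203, 592, 591 and 426 CPM in members and 50.2, 107, 27.5, 45.4 and 34.7 CPM in the rest. The syntrophin SNTB1, the secreted protein CRISPLD2, CCDC88C, the cyclic AMP phosphodiesterase PDE4A, the nuclear receptor NR4A3 and TP53I11 filled the other ranks, with r from 0.37 to 0.39. Mean levels were 371 CPM in members and 28.3 CPM in the rest for SNTB1, 641 CPM in members and 79.0 CPM in the rest for CRISPLD2 and 1269.5 CPM in members and 173 CPM in the rest for NR4A3.

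Several genes named here overlap another coding gene in the RefSeq annotation (SYNPO2 and SEC24D, HRH1 and ATG7, RGS7BP and SREK1IP1, CACNA1D and CHDH, PLN and CEP85L, CTNNA2 and LRRTM1, CACNA2D3 and LRTM1, IGSF10 and MED12L), and how the counting split their reads is not given in the sources used here, so their levels carry that limit. Receptors for vasoactive agonists other than the panel's own were unevenly represented: of 21 tested list genes, 7 were higher in members, 4 were lower and 10 did not pass, beside 11.0% higher and 9.62% lower over all tested genes, with a median log2 difference of -0.07 against -0.08 over all tested genes. EDNRA, the endothelin A receptor, was higher, with 123, 210.1, 93.9, 565 and 175 CPM in members and 49.9, 60.5, 33.9, 70.6 and 33.3 CPM in the rest (log2 difference 2.17 ± 0.20 SE, adjusted p = 1.96e-06). P2RX1, an ATP-gated channel, had 32.1, 45.7, 16.4, 20.3 and 21.6 CPM in members and 1.71, 2.32, 1.32, 1.10 and 5.53 CPM in the rest, and no values overlapped. NPY1R, a neuropeptide Y receptor, averaged 30.0 ± 9.24 CPM in members and 2.80 ± 1.09 CPM in the rest (SD, n = 5 pigs). CYSLTR1, the other cysteinyl leukotriene receptor, was at 12.3 CPM in members and 2.18 CPM in the rest, and ALOX5 and LTC4S, which make these leukotrienes, were at 1.12 and 0.717 CPM in members. ADRA1A, P2RY14 and ECE1, the enzyme that cuts endothelin from its precursor, were also higher (log2 differences 1.05, 1.29 and 1.12), though ECE1 was higher in members of the 3 obese pigs only.

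PTGER3, a prostaglandin E2 receptor, was lower, with 199, 234, 181, 103 and 82.1 CPM in members and 1052, 991, 809, 430.0 and 457 CPM in the rest (log2 difference -2.05 ± 0.14 SE, adjusted p = 1.09e-07). HRH1, the histamine H1 receptor, averaged 36.2 ± 22.0 CPM in members and 157 ± 41.8 CPM in the rest (SD, n = 5 pigs). PTGER3 and HRH1 also lead other smooth muscle states picked on these same nuclei, so their fall is not independent evidence. EDN1, the endothelin ligand, and AGTR1, an angiotensin II receptor, were lower at very low levels (1.73 CPM in members and 6.01 CPM in the rest for EDN1, 1.46 CPM in members and 4.99 CPM in the rest for AGTR1). ADRA2A, CHRM2 and CHRM3 had 0 UMIs among 6414694 in members, which allows up to 0.468 CPM (3 counts over all members).

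Regulators of G protein signalling other than RGS6 passed in 4 of 12 tested cases (3 higher, 1 lower; median 0.08), beside 11.0% higher and 9.62% lower over all tested genes. RGS16 was higher, with 18.9, 13.6, 101, 5.07 and 86.4 CPM in members and 3.05, 3.25, 2.10, 0.751 and 2.17 CPM in the rest, and among members the third obese pig and the second control pig stood highest. RGS7BP, which binds R7-family regulators such as RGS6, averaged 68.8 ± 26.4 CPM in members and 45.6 ± 19.3 CPM in the rest (SD, n = 5 pigs; log2 difference 0.75 ± 0.18 SE). RGS9, of the R7 family, was higher at 8.60 CPM in members and 4.55 CPM in the rest, and RGS17 was lower at 2.18 CPM in members and 13 CPM in the rest. GNB5, the beta subunit that pairs with R7 regulators, was at 22.7 CPM in members and 29.5 CPM in the rest (adjusted p = 0.299). Among genes of diacylglycerol and phospholipase C signalling, 4 of 20 tested were higher and 4 were lower (median -0.07), beside 11.0% higher and 9.62% lower over all tested genes. DGKG, another diacylglycerol kinase, had 1131, 776, 2211, 1286 and 1394 CPM in members and 212, 124, 272, 341 and 475 CPM in the rest (log2 difference 2.48 ± 0.21 SE, adjusted p = 1.1e-06), with no overlap. PLCE1, a phospholipase C, averaged 1134 ± 181 CPM in members and 414 ± 56.5 CPM in the rest, and PLCB1 and DGKD were higher too (log2 differences 0.77 and 1.08). The protein kinase C genes PRKCA, PRKCB and PRKCD were lower (log2 differences -0.74, -1.03 and -1.10), as was DGKI (-1.22), whose call ended under 8 of 15 alternatives, among them the removal of obese pig 1, obese pig 3 or either control pig. RGS9's call ended without the first obese or the first control pig.

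In the list of catenins and cadherins beside CTNNA3, 4 of 15 tested genes were higher in members and 4 were lower (median -0.22). Over all tested genes 11.0% were higher and 9.62% were lower. The list also held LRRTM3, which was among the 4 higher genes. CTNNA2, the neural alpha-catenin, was lower at 28.9 CPM in members and 85.0 CPM in the rest (log2 difference -1.42 ± 0.22 SE), and CTNNA1, the widespread alpha-catenin, was at 334 CPM in members and 435 CPM in the rest (adjusted p = 0.282). JUP, plakoglobin, and the cadherin CDH18 were lower (-0.75 and -1.82), and PKP4, a plakophilin, and CDH13, a cadherin without an intracellular tail, were higher (0.89 and 0.54). LRRTM3 was at 6.25 CPM in members and 0.346 CPM in the rest, but it lies inside CTNNA3 in the RefSeq annotation. Its reads may therefore not all be its own. All overlaps named here were found by position, without regard to strand. Of genes named for inhibitory synapses and related adhesion, 3 of 10 tested were higher and 2 were lower (median 0.01), beside 11.0% higher and 9.62% lower over all tested genes. DLG2, a synaptic scaffold of the MAGUK family, had 4347, 3178, 4107, 4147 and 4101 CPM in members and 622, 538, 723, 917 and 956 CPM in the rest (log2 difference 2.60 ± 0.16 SE, adjusted p = 4.66e-08). CNTN5, a contactin, was higher as well, with 529.7, 1445, 552, 1138 and 998 CPM in members and 72.3, 209, 115, 298 and 452 CPM in the rest. GPHN, gephyrin, which anchors glycine receptors through their beta subunit, was at 780.2 CPM in members and 545 CPM in the rest (log2 difference 0.66 ± 0.12 SE). The alpha subunits that form glycine receptors with GLRB were near 0, at 0.352 CPM for GLRA1, 0.127 for GLRA2 and 1.02 for GLRA3 in members. CSMD1, the relative of CSMD3, was lower, at 14.3 CPM in members and 73.8 CPM in the rest (log2 difference -2.18 ± 0.22 SE).

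Calcium handling and ion channel genes had 10 of 23 tested higher and 6 lower in members, beside 20.6% called in either direction over all tested genes (median 0.42); the list as a whole was not tested. CACNA1D, an L-type calcium channel subunit, had 111, 158, 121, 111 and 194 CPM in members and 27.2, 35.4, 13.3, 19.3 and 11.4 CPM in the rest (log2 difference 2.93 ± 0.25 SE, adjusted p = 8.61e-07). TRPC6, a cation channel gated by diacylglycerol, had 279, 255, 706, 396 and 363 CPM in members and 37.3, 70.7, 218, 159 and 71.4 CPM in the rest. CACNB2, a calcium channel beta subunit, and SLC8A1, the sodium-calcium exchanger, were among the abundant genes, at 2702 CPM in members and 1028 CPM in the rest and 2976 CPM in members and 1304 CPM in the rest. PLN (phospholamban), RYR2, ITPR1, STIM1, CACNA2D1 and CACNA1H were higher by 1.48, 0.87, 0.79, 0.89, 0.69 and 0.62 on the log2 scale. Lower genes included KCNMA1, the large-conductance calcium-activated potassium channel (881, 769, 1097, 997 and 825 CPM in members and 2396, 1946, 2926, 2781 and 3666 CPM in the rest), RYR3 (-1.44), ITPR2 (-0.65), KCNAB1 (-0.52) and CACNA2D3 (-2.58). CACNA1C, the main vascular L-type channel, was at 538 CPM in members and 456 CPM in the rest (adjusted p = 0.149).

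**Figure D3:**
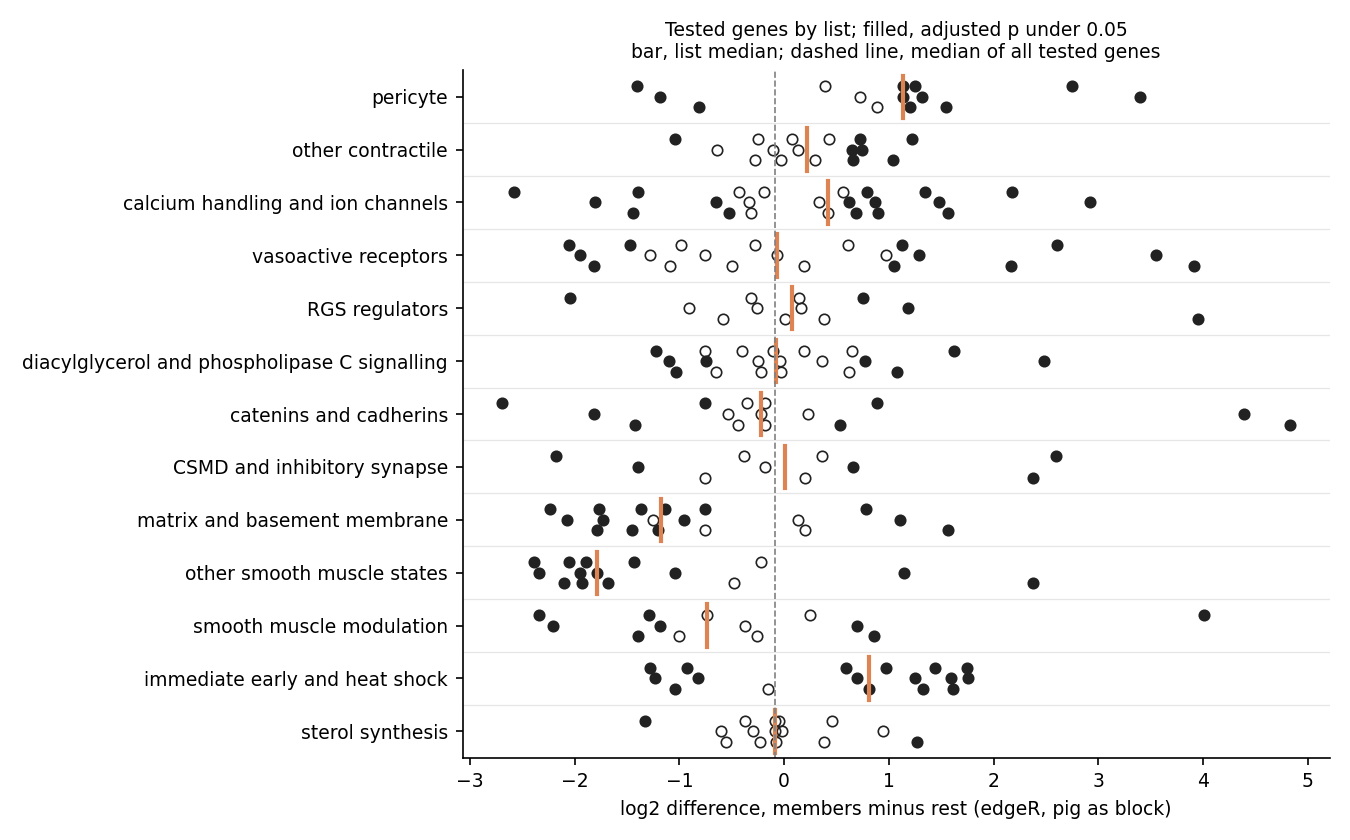
Log2 difference between members and the rest (x axis) for every tested gene of 13 lists (rows), panel and gate genes left out; filled points passed at an adjusted p under 0.05, the orange bar is the list's median and the dashed line the median of all tested genes (-0.08). The pericyte and immediate early lists lie to the right, with medians of 1.13 and 0.81, and the lists of other smooth muscle states and matrix to the left, with medians of -1.78 and -1.17.

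Most genes of the elastic and fibrillar matrix that passed were lower in members. Of 18 tested matrix genes, 11 were lower, 3 were higher and 4 did not pass (median -1.17), beside 11.0% higher and 9.62% lower over all tested genes. ELN, elastin, had 146, 137, 175, 327 and 311 CPM in members and 565, 669, 1242, 677 and 1022 CPM in the rest (log2 difference -1.79 ± 0.19 SE, adjusted p = 6.14e-06), with no overlap. FBLN5, which organizes elastic fibres, averaged 61.6 ± 26.6 CPM in members and 275 ± 43.5 CPM in the rest (SD, n = 5 pigs); it overlaps TRIP11 in the annotation. LAMB1, LAMC3, COL3A1, COL1A2, COL1A1 and FBN1 were lower, with log2 differences of -2.23, -1.77, -1.73, -1.45, -0.95 and -1.2. LAMC1, a laminin gamma chain, was higher, with 931, 874, 1032, 572 and 767 CPM in members and 366, 337, 284, 288 and 291 CPM in the rest. COL4A1 and COL4A2, the chains of the ubiquitous type IV collagen, were higher over the 5 pigs (1.10 and 0.78), but COL4A1 was higher in 4 pigs and COL4A2 in the 3 obese pigs only; their values stand with the diet comparison. These neighbouring genes overlap in the annotation.

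Genes that lead other smooth muscle states of these libraries were lower in members: 11 of 15 tested fell and 2 were higher (median -1.78), beside 11.0% higher and 9.62% lower over all tested genes. Those genes were picked on these same nuclei, so the count is not independent evidence. SVEP1, a large adhesion protein of the matrix, averaged 50.7 ± 23.7 CPM in members and 298 ± 34.8 CPM in the rest (SD, n = 5 pigs). IGSF10, HMCN1, FRZB, ADAMTSL1 and COL19A1 were lower, with log2 differences of -2.34, -2.11, -1.89, -1.68 and -1.44, and CNTN5 and GPRC5A were the tested genes of this list that were higher. Of the genes used for modulated smooth muscle, 5 of 13 tested were lower and 3 were higher (median -0.74), beside 11.0% higher and 9.62% lower over all tested genes. VCAM1, a leukocyte adhesion molecule, had 107, 36.5, 177, 19.6 and 88.6 CPM in members and 8.93, 6.27, 4.06, 3.73 and 2.17 CPM in the rest (log2 difference 4.01 ± 0.43 SE, adjusted p = 7.59e-06), higher in members of every pig. COL8A1, a short-chain collagen, had 589, 248, 526, 737 and 339 CPM in members and 1968, 1851, 3964, 2901 and 1759 CPM in the rest. FN1, MGP and CCN2 were lower (-1.40, -1.19 and -1.29). SPP1, osteopontin, was at 53.6, 79.7, 2.35, 0 and 0 CPM in members and 53.1, 118, 10.7, 0.0268 and 0.0601 CPM in the rest, and was not called (adjusted p = 0.573).

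Most immediate early genes were higher and 4 heat shock genes were lower in members, with 11 of 17 tested list genes higher and 5 lower (median 0.81), beside 11.0% higher and 9.62% lower over all tested genes. NR4A1, ATF3, ZFP36, FOSB, EGR1 and FOS, which respond to stimulation within minutes, were higher by 1.59, 1.74, 1.44, 1.33, 0.98 and 0.81 on the log2 scale. FOSB had 345, 366, 1361, 194 and 428 CPM in members and 268, 129.5, 514, 125 and 116 CPM in the rest. The chaperone genes HSPB1, DNAJB1, HSPA8 and HSPH1 and the phosphatase gene DUSP1 were lower (-1.28, -1.23, -1.05, -0.92 and -0.83). Such genes can also respond to tissue handling, and the part of handling in these levels was not tested. Of 15 tested sterol synthesis list genes, 1 was higher and 1 lower, beside 11.0% higher and 9.62% lower over all tested genes. The other 13 were not called. The lower gene was ABCA1, a cholesterol exporter that the list also held (86.1 CPM in members and 247 CPM in the rest).

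Pericyte genes, the comparison named with the rule, were mixed in members. Of 17 list genes 14 could be tested, of which 8 were higher, 3 were lower and 3 did not pass, beside 11.0% higher and 9.62% lower over all tested genes, with a median log2 difference of 1.13 against -0.08 over all tested genes. GUCY1A2, a subunit of the nitric oxide receptor, had 75.7, 72.9, 114, 117 and 376 CPM in members and 16.2, 22.9, 4.74, 19.0 and 8.96 CPM in the rest (log2 difference 3.39 ± 0.44 SE, adjusted p = 5.04e-05). KCNJ8 and ABCC9 together form the vascular ATP-sensitive potassium channel. KCNJ8 had 18.4, 13.6, 14.1, 20.3 and 25.9 CPM in members and 3.94, 3.81, 3.27, 2.47 and 1.56 CPM in the rest. ABCC9 had 237, 246, 199.6, 198 and 251 CPM in members and 94.7, 124, 80.1, 117 and 122 CPM in the rest. Neither overlapped between members and rest. PDGFRB, the platelet-derived growth factor receptor of mural cells, averaged 216 ± 61.8 CPM in members and 98.1 ± 35.0 CPM in the rest (SD, n = 5 pigs), and MCAM, GUCY1B1, GUCY1A1 and the transcription factor EBF1 were higher (1.21, 1.14, 1.13 and 1.55). RGS5, a classical pericyte marker, went the other way, with 55.7, 96.4, 43.4, 174 and 102 CPM in members and 194, 193, 186, 319 and 219.7 CPM in the rest (log2 difference -1.18 ± 0.17 SE, adjusted p = 0.000112). CSPG4, the NG2 proteoglycan, and ANPEP were lower as well (-0.81 and -1.41). HIGD1B, NDUFA4L2, STEAP4 and CD248 averaged 6.07, 1.99, 6.72 and 1.83 CPM in members, and COX4I2 6.84 CPM. HIGD1B had 5.78, 3.71, 1.17, 8.87 and 10.8 CPM in members and 0.595, 1.07, 0.147, 0.375 and 0.120 CPM in the rest, but its value in members of the third obese pig lay under the 3-count floor of 3.52 CPM, and like STEAP4 and CD248 it did not pass the filter on low counts. STEAP4 was above its 3-count floor in the second control pig alone, at 32.4 CPM. The ANPEP call ended without the second obese pig.

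Summed over the 17 genes, the pericyte level was 4273, 4831, 4531, 5924 and 6123 CPM in members and 2456, 2723, 2152, 2589 and 2358 CPM in the rest, higher in members of all 5 pigs. The mean log2 ratio was 1.05 ± 0.25 (SD, n = 5 pigs), and the two-sided exact sign-flip permutation gave p = 0.062, the smallest it can give with 5 pigs. EBF1 held most of the sum, and without it the mean log2 ratio was 0.44 ± 0.16, a removal chosen after its value was seen. Nuclei outside the smooth muscle gate with at least 3 of 8 pericyte genes numbered 9, 17, 4, 14 and 4 per pig, so no pig reached the 20 needed for a test of members against them.

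The members were not uniform in CTNNA3. A split at 20 CTNNA3 UMIs per 10,000, chosen after values were seen and therefore without a test, left 860 members above it and 172 below. The CTNNA3-low members numbered 42, 46, 30, 33 and 21 and the CTNNA3-high members 286, 210, 106, 208 and 50 in obese pigs 1 to 3 and control pigs 1 and 2. RGS6 and STUM were present in both (2197 and 529 CPM in CTNNA3-low members, 3005 and 882 CPM in CTNNA3-high members, means of 5 pigs). EDNRB and CSMD3 were higher on the CTNNA3-low side, at means of 640.0 and 888 CPM in CTNNA3-low members and 325 and 499 CPM in CTNNA3-high members. A low CTNNA3 count has to be made up by other panel genes to reach the same score, so such an offset is built into the split.

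Genes outside the panel also divided the members. ABCC9 had 544, 658, 501, 530.0 and 649.6 CPM in CTNNA3-low members and 173, 175, 138, 159 and 138 CPM in CTNNA3-high members, with no overlap. GUCY1A2 had 199, 359, 529, 451 and 1053 CPM in CTNNA3-low members and 50.1, 23.9, 29.7, 77.7 and 185 CPM in CTNNA3-high members, again with no overlap. The summed pericyte list did overlap, at 4177 to 7136 CPM in CTNNA3-low and 4047 to 5875 CPM in CTNNA3-high members (ranges over pigs). LHFPL3 (859 CPM in CTNNA3-low and 66.2 CPM in CTNNA3-high members), MOB3B (752 CPM in CTNNA3-low and 72.3 CPM in CTNNA3-high members), ARHGAP28 (278 CPM in CTNNA3-low and 16.0 CPM in CTNNA3-high members), SEMA5A (1169 CPM in CTNNA3-low and 252 CPM in CTNNA3-high members) and SULF1 (599 CPM in CTNNA3-low and 99.3 CPM in CTNNA3-high members) were higher on the CTNNA3-low side in all 5 pigs. CNTN5, PHACTR1, ARF4, TP53I11 and PLCE1 were lower there in all 5 pigs, with means of 243 CPM in CTNNA3-low and 840.1 CPM in CTNNA3-high members for PHACTR1 and 315 CPM in CTNNA3-low and 1586 CPM in CTNNA3-high members for ARF4. ABCC9 averaged 157 CPM in CTNNA3-high members and 108 CPM in the rest. Nuclei of 2000 or more UMIs that were not members and carried UMIs of both ABCC9 and GUCY1A2, most of which passed the smooth muscle gate, numbered 48, 84, 21, 102 and 30 per pig; they had 529 CPM of RGS6, 142 CPM of EDNRB and 482 CPM of CTNNA3, means of 5 pigs, between the members and the rest for RGS6, EDNRB and CTNNA3. Their ABCC9 and GUCY1A2 levels follow from how they were picked. Members were left out of them, so panel gene levels below those of members are largely built in. Markers of other cell classes also moved with the split. Macrophage genes summed to 0 to 620.4 CPM in CTNNA3-low and 2.83 to 57.1 CPM in CTNNA3-high members (ranges over pigs), endothelial genes to 202 to 639.8 CPM in CTNNA3-low and 215 to 393 CPM in CTNNA3-high members, and Schwann cell genes to 106 to 183 CPM in CTNNA3-low and 280.5 to 584 CPM in CTNNA3-high members, and their part in these differences was not tested. Whether these nuclei form more than 1 kind was not tested.

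**Figure D4:**
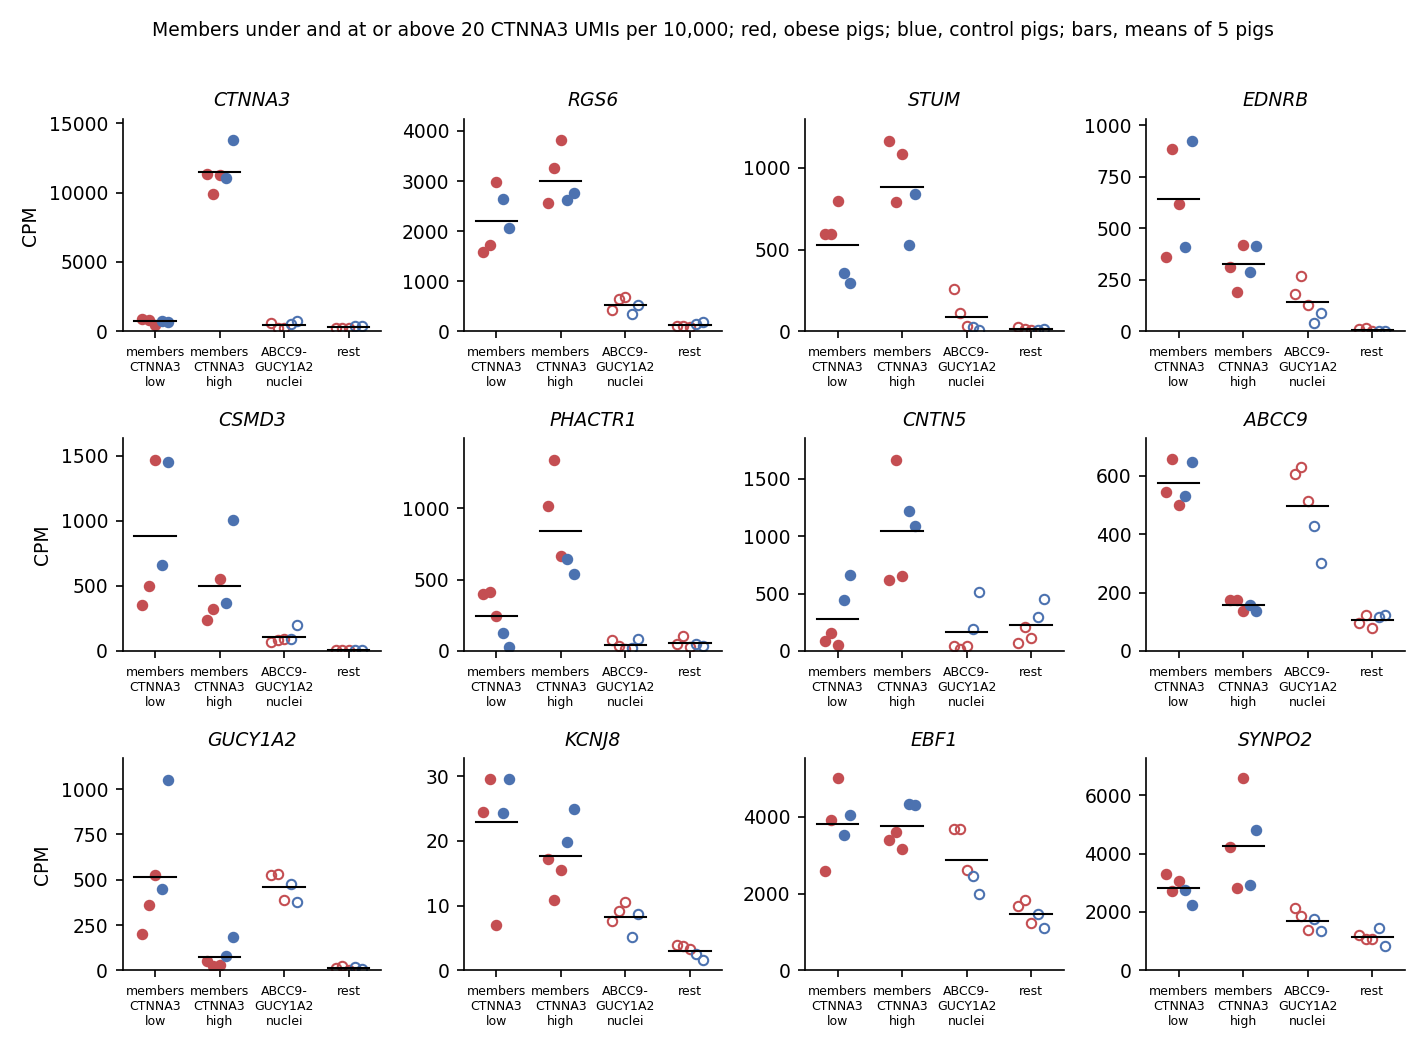
CPM of 12 genes (y axes) in CTNNA3-low members, CTNNA3-high members, non-member nuclei with ABCC9 and GUCY1A2, and the rest; each point is a pig (red obese, blue control), bars are means of 5 pigs. ABCC9 averages 577 CPM in CTNNA3-low members and 157 CPM in CTNNA3-high members, while EBF1 averages 3819 CPM in CTNNA3-low and 3761 CPM in CTNNA3-high members.

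Levels also varied along the score among members, in bands whose edges were chosen after values were seen. Over score bands of under 1.2 (187 members), 1.2 to 1.7 (395) and 1.7 or more (450), PHACTR1 was at (mean of 5 pigs) 439.8, 657 and 939 CPM, IFRD1 at 1079.5, 1984 and 2827 CPM and SYNPO2 at 2288, 3253 and 5133 CPM. NOX4 was at 487, 308 and 105 CPM, SEMA3E at 253, 204 and 57.0 CPM and ELN at 427, 252 and 112 CPM over the same bands. The first 3 genes were thus lowest and the last 3 highest in the band next to the rest. PHACTR1 and IFRD1 were named for their correlation with this same score. NOX4, SEMA3E and ELN were named for their fall between sets cut on it, and SYNPO2 was higher in members of all 5 pigs. The trends of these genes along the score are therefore largely built in. GUCY1A2 was at 272, 179.5 and 90.5 CPM and EBF1 at 3439, 3627 and 4102 CPM.

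The diet comparison within members asked which genes differ between obese and control pigs in these nuclei. By edgeR, 1 of 9621 tested genes passed (0.0104%), while 1292 had an unadjusted p under 0.05. The gene that passed was PI15, a secreted peptidase inhibitor, with 335, 239.8 and 183 CPM in members of obese pigs, against 16.5 and 13 CPM in members of control pigs (log2 difference 4.20 ± 0.39 SE, adjusted p = 0.00492). The floors for 3 counts were 1.90 and 6.48 CPM in members of these control pigs, so the 13 CPM rested on few UMIs. Each obese pig lay above both control pigs, and in the rest PI15 was at 70.9, 58.9 and 17.9 CPM in obese pigs and 22.2 and 31.4 CPM in control pigs, where the groups overlapped. The call ended without the first control pig or the second, fits which leave 1 control pig assumed to vary like the obese ones. DESeq2's Wald test called 164 genes, and the fit with no filter on low counts 415. Leaving out the third obese pig gave 24 calls and leaving out the second control pig gave 0, with 1175 genes at an unadjusted p under 0.05.

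The genes next in rank are given as values, since none passed (adjusted p 0.0728 to 0.122). NTRK3, the neurotrophin 3 receptor, had 1429, 1410.2 and 1271 CPM in members of obese pigs, against 445 and 344 CPM in members of control pigs. ZNF423, a zinc finger transcription factor, had 601, 547 and 515 CPM in members of obese pigs, against 171 and 156 CPM in members of control pigs, and RUNX1, a transcription factor of blood cell development, had 169, 113 and 83.4 CPM in members of obese pigs, against 20.3 and 10.8 CPM in members of control pigs. CIB4, a calcium-binding protein, had 65.2, 37.1 and 57.5 CPM in members of obese pigs, against 4.43 and 0 CPM in members of control pigs. A count of 0 in members of the second control pig allows up to 6.48 CPM. Obese and control pigs did not overlap for these 4 genes, which was part of how they were picked. PTGIS, prostacyclin synthase, had 55.2, 97.6 and 63.4 CPM in members of obese pigs, against 295 and 292 CPM in members of control pigs. HMCN1, hemicentin, had 69.4, 113 and 103 CPM in members of obese pigs, against 616 and 326 CPM in members of control pigs, and MAN2A1, a Golgi mannosidase, had 51.0, 54.4 and 47.0 CPM in members of obese pigs, against 200.1 and 147 CPM in members of control pigs. MYRIP (4.20, 3.09 and 0 CPM in members of obese pigs, against 36.1 and 162 CPM in members of control pigs) and CYYR1 (3.68, 2.47 and 0 CPM in members of obese pigs, against 32.9 and 28.1 CPM in members of control pigs) were the last 2.

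No list gene outside the panel passed for diet in members. Of the panel, which is described only, CYSLTR2 had 227, 148 and 349.9 CPM in members of obese pigs, against 42.4 and 41.1 CPM in members of control pigs, GLRB had 698, 428 and 487 CPM in members of obese pigs, against 124 and 277 CPM in members of control pigs and STUM had 1068, 765 and 1037 CPM in members of obese pigs, against 509 and 719.5 CPM in members of control pigs, with every obese pig above both control pigs. CTNNA3 had 9539, 8535 and 9445 CPM in members of obese pigs, against 10004 and 10872 CPM in members of control pigs and DGKB had 446, 370.2 and 565 CPM in members of obese pigs, against 702 and 752 CPM in members of control pigs, with every obese pig below both control pigs. RGS6, CSMD3 and EDNRB overlapped between the groups. Of all 9621 tested genes, 3009 (31.3%) did not overlap between 3 obese and 2 control pigs in members. Immediate early and heat shock genes had positive differences in 13 of 17 tested cases (median 0.97, all tested genes 0.01) in members and in 14 of 17 (median 0.95) in the rest, and their summed level in members was 3272 to 6225 CPM in obese pigs and 1979 to 3284 CPM in control pigs. Pericyte genes had positive differences in 3 of 14 cases (median -0.48) in members and 6 of 15 (median -0.02) in the rest, and sterol synthesis genes in 2 of 11 (median -0.62) in members and 1 of 17 (median -1.35) in the rest. For background, 35 of 18329 tested genes (0.191%) passed for diet in the rest, 15 (0.0818%) higher and 20 (0.109%) lower in obese pigs. The rest held more UMIs than the members in every pig.

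Whether diet acted alike in members and in the rest was tested directly with the interaction of set and diet, pig as a block. 42 of 15966 tested genes passed (0.263%), 34 (0.213%) with a larger obese-minus-control difference in members and 8 (0.0501%) with a smaller one. PI15 passed here too, with differences of 4.20 ± 0.39 in members and 0.80 ± 0.48 in the rest (difference of differences 3.41 ± 0.42 SE, adjusted p = 0.000482). CIB4 had the largest such value (4.11 ± 0.58 SE, adjusted p = 0.00168), and in the rest it was at 29.3, 13.8 and 21.9 CPM in obese pigs and 19.2 and 20.6 CPM in control pigs. BACH2, a transcription repressor, had 770.4, 258 and 796 CPM in members of obese pigs, against 137 and 359 CPM in members of control pigs, and 105, 47.5 and 96.5 CPM in obese pigs and 168 and 162 CPM in control pigs in the rest (difference of differences 2.58 ± 0.33 SE, adjusted p = 0.000482); members of the second obese pig lay below those of the second control pig, and BACH2 overlaps GJA10 in the annotation. ECE1 had 141, 104 and 92.8 CPM in members of obese pigs, against 20.9 and 32.4 CPM in members of control pigs, and 42.8, 37.9 and 25.7 CPM in obese pigs and 24.6 and 61.8 CPM in control pigs in the rest (2.40 ± 0.36 SE, adjusted p = 0.00213).

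Type IV collagen genes were among those that passed. COL4A1 had 4669.9, 2933 and 6210.5 CPM in members of obese pigs, against 1093 and 2588 CPM in members of control pigs, and 1825, 1256 and 2078 CPM in obese pigs and 1108 and 1834 CPM in control pigs in the rest (difference of differences 1.35 ± 0.22 SE, adjusted p = 0.00449). COL4A2 had 2343, 1496 and 2866 CPM in members of obese pigs, against 713 and 1212 CPM in members of control pigs, and 964, 877 and 1225 CPM in obese pigs and 843 and 1235 CPM in control pigs in the rest (1.43 ± 0.23 SE, adjusted p = 0.00351). Neither passed for diet within members alone (adjusted p = 0.223 and 0.192). CACNA1C, DGKG and CNTN5 passed in the same direction (1.13 ± 0.24, 1.16 ± 0.25 and 1.30 ± 0.27 SE), with differences of 0.64, 0.24 and -0.24 in members, none of which passed, and of -0.47, -1.01 and -1.58 in the rest.

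GUCY1A1, the alpha subunit of the nitric oxide receptor, went the other way, with 66.7, 146 and 56.4 CPM in members of obese pigs, against 341 and 190.1 CPM in members of control pigs, and 60.0, 102 and 48.9 CPM in obese pigs and 79.3 and 57.7 CPM in control pigs in the rest (difference of differences -1.43 ± 0.29 SE, adjusted p = 0.0276). FGF12, a modulator of sodium channels, had 29.4, 30.9 and 25.8 CPM in members of obese pigs, against 60.2 and 75.6 CPM in members of control pigs, and 11.2, 11.6 and 6.74 CPM in obese pigs and 5.15 and 3.13 CPM in control pigs in the rest (-2.25 ± 0.44 SE). MCTP1 (-2.40 ± 0.49), CHMP4C (-3.16 ± 0.62) and CLEC2B (-4.66 ± 0.90) were the other named genes with a smaller difference in members, and CLEC2B rested on the first control pig, with 4.20, 0, 1.17, 52.6 and 2.16 CPM in members. Calls ended without the first control pig for COL4A1, CACNA1C, GUCY1A1, CHMP4C and CLEC2B, without the second control pig for CACNA1C, DGKG, CNTN5, MCTP1 and FGF12, and without the first obese pig for GUCY1A1 and FGF12. PI15, CIB4, BACH2, ECE1 and COL4A2 passed under every leave-one-out fit of the interaction. Leaving out a pig gave 43 to 112 calls, among them 112 without obese pig 2, 89 without obese pig 3 and 78 without control pig 1.

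**Figure D5:**
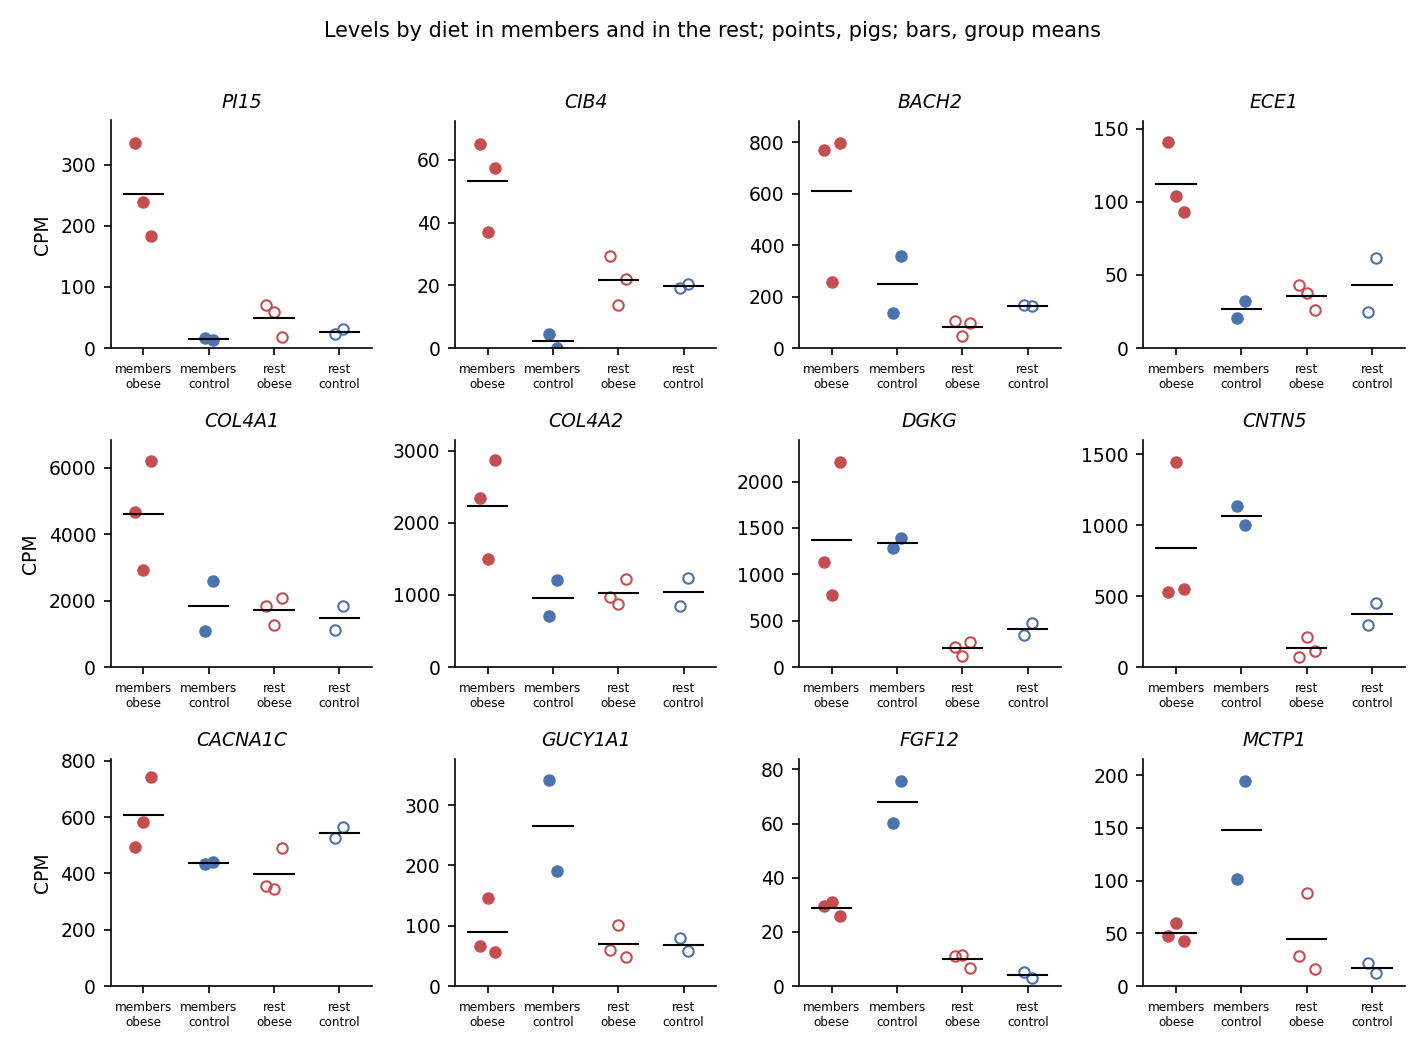
CPM (y axes) of 12 genes in members of obese and control pigs and in the rest of obese and control pigs; points are pigs and bars are group means. PI15 lies at 183 to 335 CPM in members of obese pigs, 13 to 16.5 CPM in members of control pigs, 17.9 to 70.9 CPM in the rest of obese pigs and 22.2 to 31.4 CPM in the rest of control pigs.

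Of the endothelial markers 4 of 9 tested were lower in members and 5 did not pass, beside 9.62% lower over all tested genes. The few markers of other classes that were higher are named with their values. Summed over 10 endothelial genes, the level was 213 to 447 CPM in members and 952 to 1450.4 CPM in the rest, and ERG, a transcription factor of endothelium, was lower and made up most of it (192 CPM in members and 959 CPM in the rest). VWF, FLT1 and PECAM1 were also lower, with log2 differences of -1.41, -1.13 and -0.76, and all 3 calls ended when nuclei with 3 or more markers of another class were left out. The VWF call also ended without the first or the second obese pig, and the PECAM1 call without the first control pig. The 9 fibroblast genes summed to 117 to 214 CPM in members and 317 to 533 CPM in the rest. Of 7 tested, 5 were lower, beside 9.62% lower over all tested genes. FBLN1 was among the 5 (21.8 CPM in members and 88.4 CPM in the rest). Macrophage genes summed to 2.53 to 138 CPM in members and 12.3 to 268 CPM in the rest (CD163, -1.70, a call that ended without the second obese pig), and within members to 7.05 to 138 CPM in obese pigs and 2.53 to 6.48 CPM in control pigs. T or NK cell genes summed to 6.48 to 35.8 CPM in members and 10.2 to 49.8 CPM in the rest, and SKAP1 and CD247, the most abundant of them, were at 8.24 and 5.68 CPM in members. Schwann cell genes summed to 263 to 493 CPM in members and 213 to 461 CPM in the rest, almost all of it NCAM1 (362 CPM in members and 251 CPM in the rest), with SOX10 at 0.229 CPM in members.

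Neuronal genes summed to 15.1 to 83.6 CPM in members and 55.6 to 110.1 CPM in the rest, with RBFOX3 and NEFL at 0 in members and UCHL1 lower (-1.48). The cardiomyocyte list was 1544 to 2649 CPM in members and 938 to 1590.0 CPM in the rest through RYR2, while MYH6, MYH7, NPPA and ACTC1 had 0 UMIs in members and ACTN2 was lower (22.0 CPM in members and 122 CPM in the rest). Adipocyte genes summed to 130.3 to 208 CPM in members and 68.1 to 157 CPM in the rest through ACACB (131 CPM in members and 69.9 CPM in the rest), with ADIPOQ and LEP at 0. The kidney tubule list, 112 to 239 CPM in members and 748 to 1023 CPM in the rest, was carried by ERBB4, a neuregulin receptor that smooth muscle of the rest also expressed (155 CPM in members and 868 CPM in the rest, log2 difference -2.35 ± 0.14 SE), with SLC34A1 and AQP2 at 0 in members and CUBN lower (-1.09), a call that ended without the first control pig. A count of 0 over all members allows up to 0.468 CPM. Each replicate was taken as a separate pig. In the diet comparisons within members or within the rest, the p-values reflect the spread between these 5 animals. In the comparison of members with the rest, they reflect how evenly a within-pig difference held over the 5 animals. In the interaction, they set the change of that within-pig difference between obese and control pigs against its spread within the groups.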

How the data were processed

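The deposited matrices hold UMI counts per gene and barcode, 1 library per pig. Reads were mapped to the pig genome (build Sscrofa11) and counted by the authors with Cell Ranger 5.0, per the series' design text; the file headers name Cell Ranger 7.1.0, and Seurat 5.0 stands in the submitters' processing notes. The raw counts were used here. No correction for free RNA is given in the sources used here, and levels at a few UMIs can include it. Members, panel and gene lists were chosen with earlier results of these data known.

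Counts were summed per pig and set and tested with edgeR 4.0.16 (R 4.3.3; TMM, filterByExpr, quasi-likelihood F-test, Benjamini-Hochberg adjusted p under 0.05 over all tested genes), with pig as a block wherever members met the rest; SE is the log2 difference over the square root of F. Panel and gate genes stayed in each fit and were left out of every count of calls. DESeq2 1.42.0 served as an alternative. Doublet scores came from Scrublet in scanpy 1.11.5. Shares and the summed pericyte level were tested by exact permutation over pigs.

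Genes were named by rule: for members against the rest, the 12 called genes of greatest rise and 10 of greatest fall, with a symbol, the same sign in all 5 pigs and 20 or more CPM in the higher set; for diet, called genes without overlap between the groups, filled by p to 5 in a direction; for the interaction, the 5 largest called in each direction; from each list, up to 6 called genes; and the 10 genes most like the score among those detected in at least 2% of gated nuclei. Other list genes were named after their values were seen. A few genes that these rules or lists hold are not reported here. Of the files' 35670 genes, 17508 carried a symbol and 220 more, CYSLTR2 among them, were named through the RefSeq table; 15 genes of the lists were not matched. The planned test of members against nuclei with pericyte genes could not be fitted, since no pig had 20 such nuclei. Group sums held 462819 to 1902810 UMIs of members per pig, so a count of 0 in a pig allows 1.58 to 6.48 CPM. Intervals and floors cover counting error only.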

Additional observations from a re-analysis of the deposited data

Results flagged for a closer look

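For 14 named genes the obese-minus-control difference was not the same in members as in the other smooth muscle nuclei, by edgeR's test of the interaction (adjusted p 0.000482 to 0.041). Each value is the log2 difference in members minus that in the rest. It was positive for PI15 (3.41), CIB4 (4.11), BACH2 (2.58), ECE1 (2.40), COL4A2 (1.43), COL4A1 (1.35), CNTN5 (1.30), DGKG (1.16) and CACNA1C (1.13). It was negative for CLEC2B (-4.66), CHMP4C (-3.16), MCTP1 (-2.40), FGF12 (-2.25) and GUCY1A1 (-1.43). None of these negative calls held with the top 10% as members. PI15 had 335, 239.8 and 183 CPM in members of obese pigs, against 16.5 and 13 CPM in members of control pigs, and CIB4 had 65.2, 37.1 and 57.5 CPM in members of obese pigs, against 4.43 and 0 CPM in members of control pigs. CHMP4C had 3.15, 4.94 and 0 CPM in members of obese pigs, against 39.3 and 19.4 CPM in members of control pigs, few UMIs in all. The causes were not tested.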

How the results depend on the processing

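The mean share of members stayed higher in obese pigs under every alternative. The difference was 2.42 to 4.55 percentage points over scores, gates and filters, and 1.95 to 5.99 when a pig was left out. Over scores, gates and filters p was 0.3 or 0.4 in the two-sided exact permutation test. The obese and control pigs overlapped under each of these except the top 2.5% as members. The summed pericyte level stayed higher in members, with mean log2 ratios of 0.91 to 1.12 beside that without EBF1. Genes called between members and rest numbered 1632 with no replicate block. Diet calls in members numbered 164 by DESeq2's Wald test, 415 with no filter on low counts, 17 and 6 with the top 2.5% and 10% as members, 7 without high doublet scores, 13 without nuclei holding markers of another class, and 0 to 24 when a pig was left out. Diet calls in the rest numbered 716, 1040 and 8 by the Wald test, with no filter and with a gate of 5 genes, and 0 to 513 when a pig was left out (1781 genes at an unadjusted p under 0.05 by edgeR in the fit without obese pig 1, which called none). Interaction calls numbered 126 with no filter, 45 by the Wald test, 34 with DESeq2 size factors, 120 with the top 2.5% and 37 with the top 10%. A gate of 5 genes gave 81, thinned nuclei 73, removal of high doublet scores 107 and removal of nuclei holding markers of another class 64. Leaving out an obese pig gave 60 to 112. With the top 10% all 37 calls had a larger difference in members. The calls of CLEC2B, CHMP4C, MCTP1, FGF12, GUCY1A1 and CACNA1C ended there.

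Obese and control pigs shared replicate numbers 1 and 2, and their deviations from the group means correlated at 0.03 and -0.17. With 2 control pigs, the deviations of 1 mirror those of the other. These values therefore cannot show whether the numbers pair the animals. With the number as a replicate block, 43 genes passed for diet in members and 420 in the rest, and the share of members differed by 5.99 points. Reversed signs, all of genes at low levels, were FLT1 with the top 10% (0.42), SKAP1 with a gate of 5 genes (0.26) and without nuclei holding other markers (0.37), XKR4 likewise (0.14 and 0.26), and CLEC2B's interaction with the top 2.5% (0.68). Leaving out a pig gave -0.38 to 0.19 for SKAP1 and -0.20 to 0.80 for CD247. The causes were not tested. The fit against nuclei with pericyte genes and its alternatives were not run, since no pig held enough of them. With 2 control pigs, 1 library per animal and 71 members in control pig 2, diet differences in members are limited by the number of pigs and by depth.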
